A study of Homo sapiens with 4 samples.

Results

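The 49 genes described here are genes of the G2/M transition and of mitosis, taken by symbol from the table of 28395 genes. All 49 were found in it, and all 49 were among the 14841 genes that passed the filter on low counts and were tested. Messenger RNA was measured in A375, an established human melanoma line labelled wild type, after 6 h in medium with 0.01% ozonated olive oil (2 libraries) or 0.01% olive oil (2 libraries). The comparison asks which transcripts differ after the ozonated oil, and both groups share the line, the serum-containing medium and the time. The libraries of each group carry the numbers 1 and 2. The labels do not say whether these are separate cultures, so a p-value here reflects how these libraries vary, and that variation may be technical only.

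Cells enter mitosis when CDK1 bound to cyclin A or cyclin B is freed of its inhibitory phosphates by the CDC25 phosphatases, with the Polo and Aurora kinases acting on the spindle poles, centromeres and cortex. The spindle checkpoint holds the ubiquitin ligase APC/C until every kinetochore is attached. The ligase then marks cyclin B and securin for destruction, and kinesins and the central spindle divide the cell. The transcripts of these proteins are made in late S and G2 phase under the control of FOXM1, B-MYB, NF-Y and the MuvB complex, and are repressed in resting cells by the DREAM complex. In cultures that are not synchronised, a lower transcript level can mean fewer cells in G2 and mitosis or less transcript per cell, and these cannot be told apart here.

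The promoters of 4 members are shown because NF-Y and MuvB meet the genes there. They are the 300 bases from 250 before to 50 after the RefSeq start, on GRCh38.p14 and in the direction of the gene. Capitals mark matches to the NF-Y box CCAAT and to the cell cycle genes homology region, or CHR, searched as TTTGAA or TTCGAA, each on both strands. The CCNB1 promoter lies on the plus strand at chr5:69166900-69167199, that of PLK1 on the plus strand at chr16:23678639-23678938, that of CDC20 on the plus strand at chr1:43358731-43359030 and that of CCNA2 on the minus strand at chr4:121823834-121824133.
CCNB1: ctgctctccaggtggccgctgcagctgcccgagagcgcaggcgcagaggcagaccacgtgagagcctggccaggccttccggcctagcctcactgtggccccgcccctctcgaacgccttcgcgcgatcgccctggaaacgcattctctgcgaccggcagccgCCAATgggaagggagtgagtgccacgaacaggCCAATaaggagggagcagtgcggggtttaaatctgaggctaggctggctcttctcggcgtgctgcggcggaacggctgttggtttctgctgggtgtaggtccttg
PLK1: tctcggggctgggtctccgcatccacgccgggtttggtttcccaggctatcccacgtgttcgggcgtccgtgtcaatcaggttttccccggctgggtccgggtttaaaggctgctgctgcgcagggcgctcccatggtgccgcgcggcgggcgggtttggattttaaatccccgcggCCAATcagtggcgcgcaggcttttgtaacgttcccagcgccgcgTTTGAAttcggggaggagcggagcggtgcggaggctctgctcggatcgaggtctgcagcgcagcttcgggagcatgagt
CDC20: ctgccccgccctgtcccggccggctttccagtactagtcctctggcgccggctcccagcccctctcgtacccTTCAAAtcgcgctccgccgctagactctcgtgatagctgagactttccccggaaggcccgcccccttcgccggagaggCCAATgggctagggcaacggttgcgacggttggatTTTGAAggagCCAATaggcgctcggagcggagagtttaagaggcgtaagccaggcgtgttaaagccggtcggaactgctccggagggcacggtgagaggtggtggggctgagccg
CCNA2: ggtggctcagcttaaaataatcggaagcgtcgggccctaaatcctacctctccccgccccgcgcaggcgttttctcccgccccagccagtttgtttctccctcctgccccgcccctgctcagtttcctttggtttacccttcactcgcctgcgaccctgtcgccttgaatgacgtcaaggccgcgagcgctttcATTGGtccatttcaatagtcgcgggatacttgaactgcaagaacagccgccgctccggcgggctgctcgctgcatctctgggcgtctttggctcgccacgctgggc
PLK1 and CDC20 hold both kinds of match, while CCNB1 and CCNA2 hold NF-Y boxes and no CHR match of these letters in this window. The table of promoters held 41 of the members, and AURKA, BIRC5, BUB3, FOXM1, RACGAP1, TPX2, TTK and UBE2C had no entry. Of the 41, 31 (75.6%) held a CHR match, against 11.5% of the 11538 promoters of tested genes and 16.6% of the 27305 promoters of the table. An NF-Y box was found in 33 (80.5%), against 36.6% of the promoters of tested genes and 35.7% of the table. Both were found in 27 (65.9%), against 4.81% of the promoters of tested genes and 6.58% of the table. A CHR match within the 100 bases before the start was found in 19 (46.3%), against 3.05% of the promoters of tested genes. A CHR match and an NF-Y box can share at most 1 letter. These are matches of letters, and no binding was measured.

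**Figure D1:**
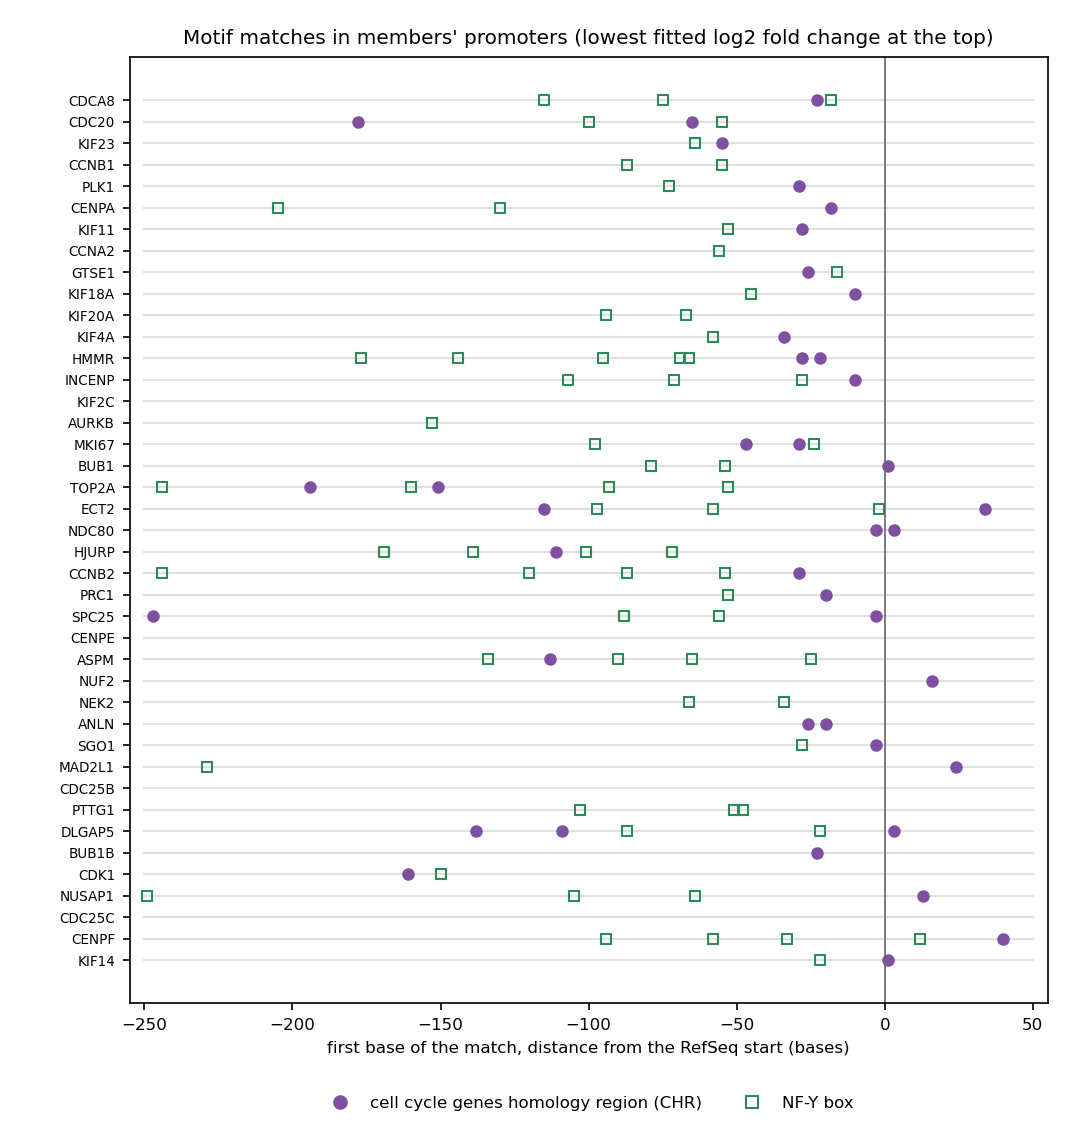
Position of motif matches in the promoters of 41 members, in bases from the RefSeq start, with filled circles for the CHR and open squares for NF-Y boxes on either strand. Genes are ordered by their fitted log2 fold change, ozonated over olive oil, with the lowest at the top, and circles stand within the 100 bases before the start in 19 of the 41 rows, in the upper and in the lower part of the order, while other rows have them further upstream or after the start.

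The libraries held 23571726 and 22245807 counts with the ozonated oil and 27772480 and 26609495 with olive oil. Levels are given as CPM, read counts brought to a common library size with totals adjusted by TMM. A count of 0 allows up to 0.106 to 0.139 CPM (3 counts, counting error only). Libraries with the same number resembled each other more than libraries with the same oil did: the chi-square per degree of freedom was 22.8 and 30.0 between oils within a number, against 43.4 and 47.8 between numbers within the ozonated oil and within olive oil. The line was checked against markers of melanoma. SOX10 lay at 278 to 361 CPM and VIM at 2293 to 2736 CPM. The pigment genes PMEL, MLANA and DCT stayed at 1.35 CPM or less and TYR had no counts. Of the other melanoma markers, MITF lay at 24.2 to 36.1 CPM, NES at 168.4 to 270.6 CPM and S100B at only 3.32 to 9.02 CPM. AXL had a mean of 379.5 CPM with the ozonated oil and 481.8 CPM with olive oil. Keratinocyte, fibroblast and endothelial markers stayed at 3.02 CPM or less except KRT14 (7.91 to 16.4 CPM), and of the leukocyte markers CD3E had no counts, PTPRC stayed at 0.17 CPM or less and CD68, which tumour cells can express, lay at 28.4 to 81.7 CPM. The part of KRT14 and CD68 in the results below was not tested.

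Most members lay slightly lower with the ozonated oil, and none passed the test. The median log2 fold change (ozonated over olive oil) of the 49 members was -0.11, against 0.00 over all tested genes, and 38 of the 49 were below 0, where 49.9% of all tested genes were. Differences were small throughout, from -0.43 for CDCA8 to 0.21 for KIF14. The summed counts of the 49 genes were 0.669% and 0.711% of all counts in the ozonated libraries, against 0.729% and 0.809% in the olive oil libraries. Both ozonated shares were thus below both olive oil shares. These shares rest on library totals without TMM. After TMM the members' median log2 CPM was 6.75 and 6.90 with the ozonated oil, against 6.80 and 7.08 with olive oil. On that scale the groups overlapped. In the quasi-likelihood test of edgeR, with p-values adjusted over all genes by Benjamini-Hochberg, 0 of 49 members passed (smallest adjusted p = 0.9998), as did 0 of all 14841 tested genes (0%). DESeq2 and limma-voom, fitted like edgeR to the groups alone, also called 0 members, where they called 0.438% and 0% of all tested genes. An unadjusted p under 0.05 was found for 6 members, CDCA8, CDC20, KIF23, BIRC5, CCNB1 and AURKA, all of them lower, and for 570 of all tested genes (3.84%). For a single value the smallest two-sided exact permutation p with 2 libraries against 2 is 0.333.

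The direction was shared by the replicate numbers for most members. Within number 1 (log2 CPM of 1 ozonated minus 1 olive oil library, after adding a prior count of 2) the median of the members was -0.09, and within number 2 it was -0.13. Both values were below 0 for 31 members (63.3%), where 31.1% of all tested genes were lower within both numbers. They were above 0 for 3 members, CENPF, KIF14 and NUSAP1, where 31.6% of all tested genes were, and the signs differed for 15, where 37.3% did. Both ozonated libraries lay below both olive oil libraries for 20 members (40.8%), where 15.7% of all tested genes did, and above them for none of the members, where 15.3% of all tested genes did. The 48 members with a mean of at least 10 CPM held all 31 and all 20, and over the 9483 tested genes at that level the shares were 31.6% and 16%. This level was chosen after the data were seen. The members share regulators and a place in the cell cycle, so they are not independent of each other. They were also chosen with earlier results of these data known, so these shares describe the list and are no test of it.

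**Figure D2:**
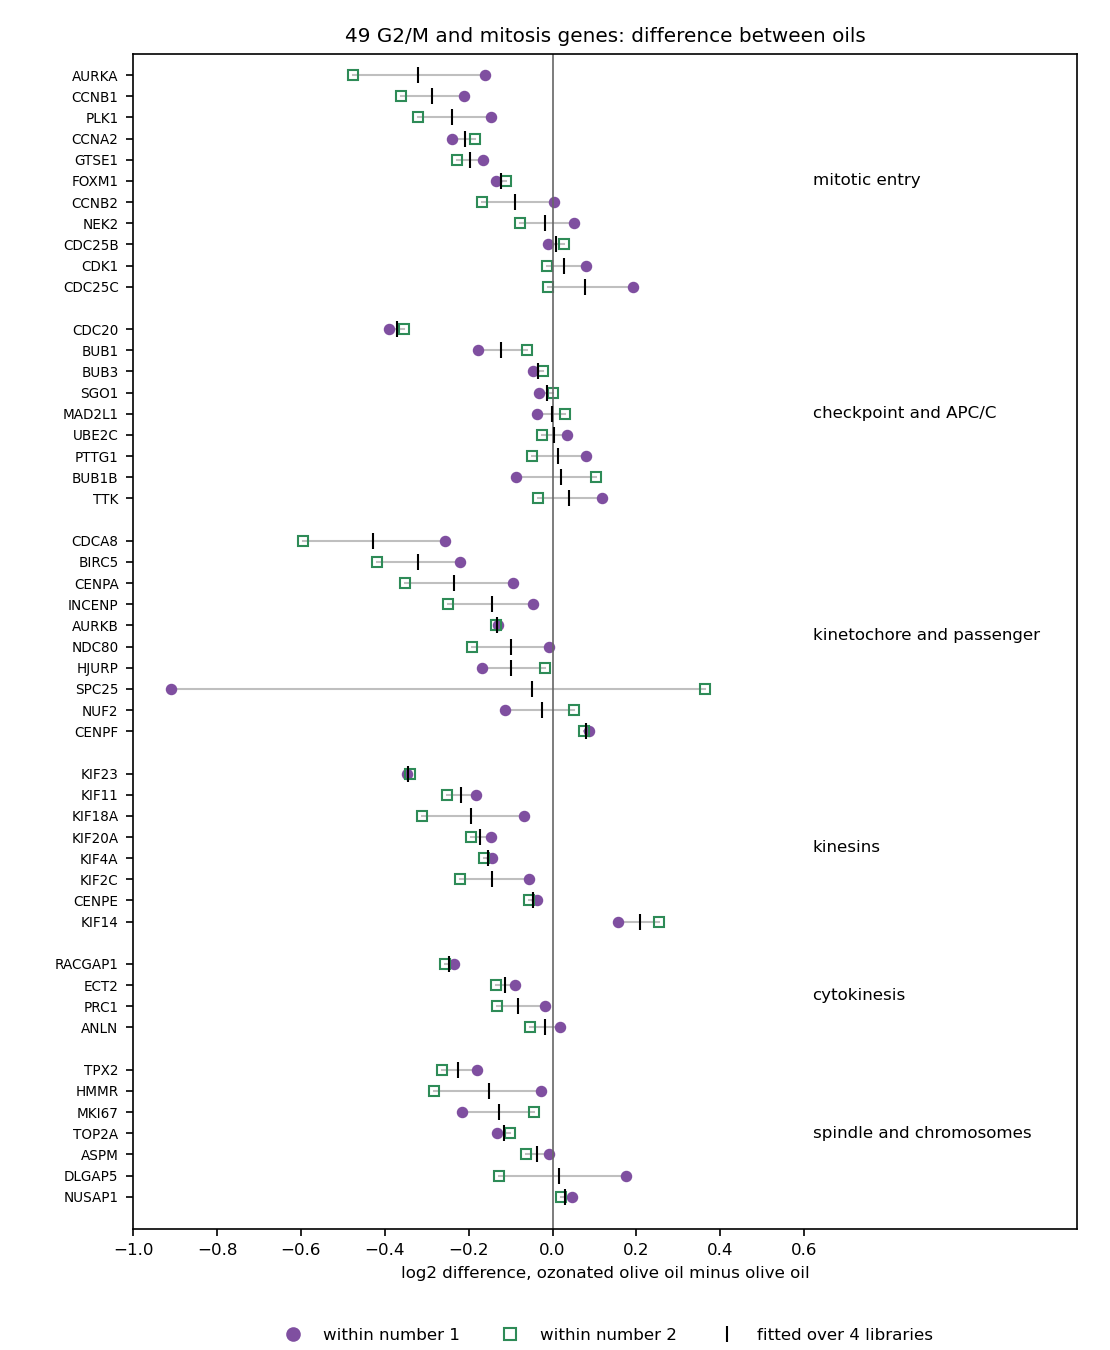
Difference between the oils for each of the 49 genes, in log2 units (ozonated minus olive oil), by role: filled circles within number 1, open squares within number 2, and black ticks the value fitted over the 4 libraries. Both symbols lie left of 0 for 31 genes and right of 0 for 3, and the widest pair is SPC25, which had 4 to 17 counts.

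The spread between the numbers was of the same size as the difference between the oils. Number 2 lay above number 1 for most members in both groups. The median log2 difference was 0.11 within the ozonated oil and 0.17 within olive oil, against 0.00 over all tested genes in either group. Number 2 was the lower one for 13 members (26.5%) within the ozonated oil and for 6 (12.2%) within olive oil, where 49.7% and 49.8% of all tested genes were. For 15 members (30.6%) both differences between numbers exceeded both differences between oils, a share near the 31.6% of all tested genes. The values fitted without 1 library moved as well, and each such fit lacks 1 number in 1 oil. Whether the number or the single library set these moves was not tested. The members' median was -0.05 without ozonated olive oil replicate 1, with 28 members below 0, and -0.17 without its replicate 2, with 45 below 0. It was -0.18 without olive oil replicate 1, with 46 below 0, and -0.03 without its replicate 2, with 26 below 0. The fitted values of 24 members turned sign without 1 of the 4 libraries, those of a further 15 moved by more than 1.5 times, and those of the other 10 did not: CCNB1, AURKA, GTSE1, FOXM1, CDC20, CDCA8, BIRC5, KIF23, KIF4A and RACGAP1.

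**Figure D3:**
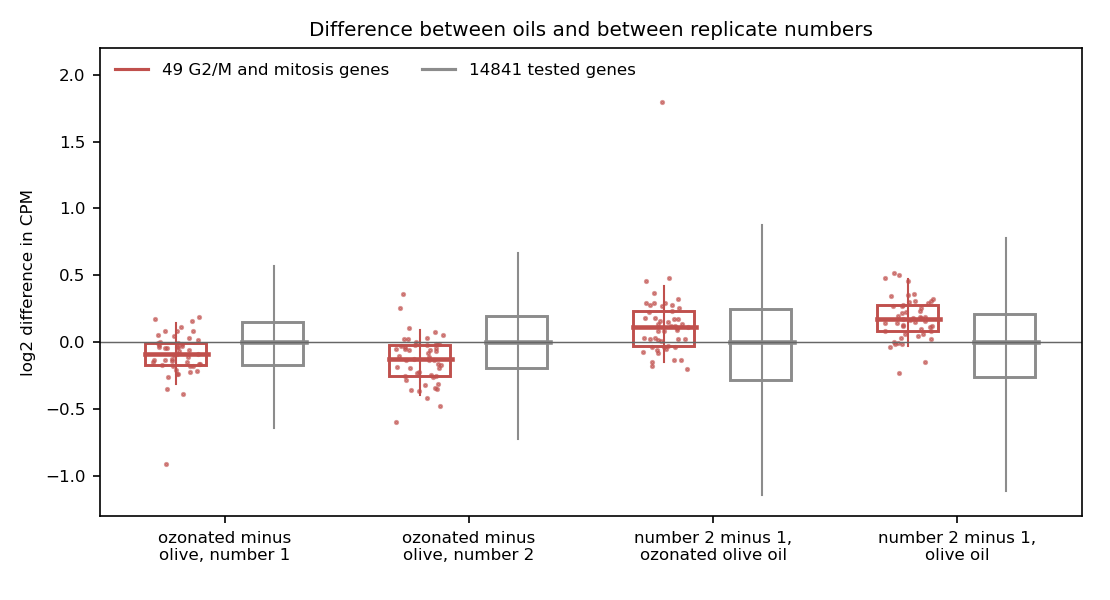
Log2 differences in CPM between the oils (left pairs) and between replicate numbers (right pairs), for the 49 genes (red, with a point per gene) and all 14841 tested genes (grey). Boxes span the quartiles with the median as a thick line, and whiskers run over the central 90% of genes. The red medians lie at -0.09 and -0.13 between the oils and at 0.11 and 0.17 between the numbers, and the grey ones at 0.

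Mitotic entry was represented by 11 members, of which 8 had a fitted value below 0 and 6 were lower within both numbers (role median -0.12). CCNB1, which encodes cyclin B1, the partner of CDK1 at mitotic entry (ENSG00000134057, chromosome 5, 69167150 to 69178245), lay at 246.8 and 242.0 CPM in the ozonated libraries, against 285.6 and 310.9 CPM in the olive oil libraries. Both ozonated values were below both olive oil values, by more than the difference between the libraries of either group, and the fitted log2 fold change was -0.29 ± 0.11 (SE, unadjusted p = 0.043 by edgeR, adjusted p = 0.9998). AURKA, the spindle pole kinase Aurora A (ENSG00000087586, chromosome 20, 56369390 to 56392215), lay at 135.1 and 123.1 CPM with the ozonated oil, against 151.0 and 171.3 CPM with olive oil. Its groups did not overlap either, with a fitted value of -0.32 ± 0.12 and a wider gap within number 2 (-0.48) than within number 1 (-0.16). PLK1, the Polo-like kinase that acts at poles, kinetochores and midzone, lay at 156.3 and 171.7 CPM with the ozonated oil, against 173.0 and 214.4 CPM with olive oil. The highest ozonated and the lowest olive oil library of PLK1 nearly met, and the fitted value was -0.24 ± 0.15, or -0.08 without olive oil replicate 2.

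GTSE1, a microtubule-binding protein of G2 and mitosis, lay at 68.4 and 66.8 CPM with the ozonated oil, against 76.7 and 78.3 CPM with olive oil. FOXM1, the transcription factor of many genes described here, lay at 171.4 and 172.9 CPM, against 188.2 and 186.6 CPM. In both genes the libraries of a group lay close together and the groups did not overlap, with fitted values of -0.20 ± 0.10 and -0.12 ± 0.10. Cyclin A2, encoded by CCNA2, lay at 98.1 and 118.6 CPM with the ozonated oil, against 115.8 and 134.8 CPM with olive oil, groups that overlapped (-0.21 ± 0.15). CDK1 itself lay at 107.3 and 138.1 CPM with the ozonated oil, against 101.5 and 139.5 CPM with olive oil. The CDK1 groups overlapped, the fitted value was 0.03 ± 0.21, and the libraries numbered 2 stood above those numbered 1 in both groups. The kinase gene NEK2 (-0.02), the cyclin gene CCNB2 (-0.09) and the phosphatase genes CDC25B (0.01) and CDC25C (0.08) also had opposite signs in the 2 numbers.

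The spindle checkpoint and the APC/C, with the proteins that load or are targeted by it, held 9 members, 5 with a fitted value below 0 and 3 lower within both numbers (role median 0.00). CDC20, the activator of the APC/C that the checkpoint captures (ENSG00000117399, chromosome 1, 43358981 to 43363203), lay at 219.2 and 247.4 CPM in the ozonated libraries, against 287.1 and 316.4 CPM in the olive oil libraries. The groups did not overlap, with within-number values of -0.39 and -0.35 and a fitted value of -0.37 ± 0.12 (fold 0.77, unadjusted p = 0.029 by edgeR, adjusted p = 0.9998). The other proteins of the mitotic checkpoint complex gave values near 0. MAD2L1 had -0.00 ± 0.15, BUB1B, which encodes BUBR1, had 0.02 ± 0.20, and BUB3 had -0.03 ± 0.10. MAD2L1, for example, lay at 97.4 and 119.3 CPM with the ozonated oil, against 99.9 and 117.0 CPM with olive oil, so that only the numbers set its libraries apart. BUB1, a checkpoint kinase that marks centromeric histone, lay at 93.0 and 90.9 CPM, against 105.3 and 94.9 CPM, which did not overlap (-0.12 ± 0.11).

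TTK, the kinase MPS1 that starts checkpoint signalling, lay at 57.1 and 58.3 CPM with the ozonated oil, against 52.7 and 59.7 CPM with olive oil. Its groups overlapped (0.04 ± 0.12). UBE2C, the ubiquitin-conjugating enzyme of the APC/C, lay at 116.1 and 118.3 CPM with the ozonated oil, against 113.4 and 120.4 CPM with olive oil, and the ozonated pair lay inside the olive oil pair (0.00 ± 0.10). PTTG1, which encodes securin, the APC/C target that restrains separase, had 0.01 ± 0.11, and SGO1, the protector of centromeric cohesion, had -0.01 ± 0.19. CDC20 and BUB1 were thus the 2 members of this role whose groups did not overlap (22.2%, against 15.7% of all tested genes with both ozonated libraries lower), and the other 7 overlapped.

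The kinetochore, the centromere and the chromosomal passenger complex held 10 members, 9 with a fitted value below 0 and 7 lower within both numbers (role median -0.12). The passenger complex couples the kinase Aurora B to the scaffold INCENP and to borealin and survivin. All 4 of its genes were lower within both numbers, where 31.1% of all tested genes and 63.3% of the members were. Within number 1 the INCENP value was only -0.05, and the fitted value of AURKB ranged from -0.29 to 0.0265 without 1 library. CDCA8, which encodes borealin (ENSG00000134690, chromosome 1, 37692516 to 37709719), lay at 65.8 and 59.3 CPM in the ozonated libraries, against 78.6 and 89.6 CPM in the olive oil libraries. It had the lowest fitted value of the 49 genes, -0.43 ± 0.13 (fold 0.74, unadjusted p = 0.020 by edgeR, adjusted p = 0.9998). BIRC5, which encodes survivin (ENSG00000089685, chromosome 17, 78214253 to 78225635), lay at 108.3 and 102.7 CPM, against 126.2 and 137.3 CPM. Its groups did not overlap, with -0.32 ± 0.11. In CDCA8 and BIRC5 alike the gap was wider within number 2 (-0.60 and -0.42) than within number 1 (-0.26 and -0.22). INCENP lay at 129.6 and 114.6 CPM with the ozonated oil, against 133.8 and 136.2 CPM with olive oil (-0.14 ± 0.11). AURKB lay at 76.0 and 93.2 CPM, against 83.2 and 102.4 CPM, groups that overlapped although both within-number values were near -0.13.

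CENPA, the histone H3 variant of centromeres, lay at 20.6 and 22.2 CPM with the ozonated oil, against 22.0 and 28.3 CPM with olive oil, where only the second olive oil library stood out (-0.23 ± 0.19). Its chaperone HJURP had -0.10 ± 0.13. In the NDC80 complex, which binds microtubule ends, NDC80 had -0.10 ± 0.12 and NUF2 had -0.03 ± 0.14. SPC25 of the same complex had 4 and 17 counts in the ozonated libraries, against 11 and 16 in the olive oil libraries, or 0.170 and 0.786 CPM against 0.390 and 0.594 CPM. No difference was detectable at that depth (-0.05 ± 0.84). The gene of its direct partner, SPC24, had 863 and 874 counts with the ozonated oil, against 1035 and 1017 with olive oil. CENPF, a large outer kinetochore protein, lay at 457.9 and 511.5 CPM, against 431.1 and 485.5 CPM, and was 1 of the 3 members higher within both numbers (0.08 ± 0.12).

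Kinesins move chromosomes and slide spindle microtubules. Of the 8 kinesin members, 7 were lower within both numbers and 5 had groups that did not overlap, all 5 lower (role median -0.16), where 31.1% and 15.7% of all tested genes were and did. KIF23, the motor of the centralspindlin complex (ENSG00000137807, chromosome 15, 69414349 to 69448427), lay at 117.4 and 129.2 CPM in the ozonated libraries, against 149.4 and 163.7 CPM in the olive oil libraries. The values within the numbers were nearly equal, -0.35 and -0.34, and the fitted value was -0.34 ± 0.12 (fold 0.79, unadjusted p = 0.032 by edgeR, adjusted p = 0.9998). KIF11, the motor Eg5 that pushes spindle poles apart, lay at 174.0 and 189.3 CPM with the ozonated oil, against 197.4 and 225.5 CPM with olive oil. The groups stood apart by less than the libraries of either group did (-0.22 ± 0.12). KIF20A, the motor MKLP2 that carries the passenger complex to the midzone, lay at 94.6 and 110.5 CPM, against 104.8 and 126.4 CPM, groups that overlapped (-0.17 ± 0.15).

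KIF14, which acts with citron kinase in cytokinesis, went the other way. It lay at 123.9 and 148.2 CPM with the ozonated oil, against 111.1 and 124.3 CPM with olive oil, and its groups overlapped slightly (0.21 ± 0.14, the highest fitted value of the 49 genes). The other 4 kinesin genes were lower within both numbers: the chromokinesin gene KIF4A (-0.15 ± 0.10), KIF18A, which limits chromosome oscillation (-0.19 ± 0.15), the depolymerase gene KIF2C (-0.14 ± 0.14) and the kinetochore motor gene CENPE (-0.05 ± 0.10). KIF4A lay at 93.9 and 90.1 CPM with the ozonated oil, against 103.7 and 101.0 CPM with olive oil, and its groups did not overlap.

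**Figure D4:**
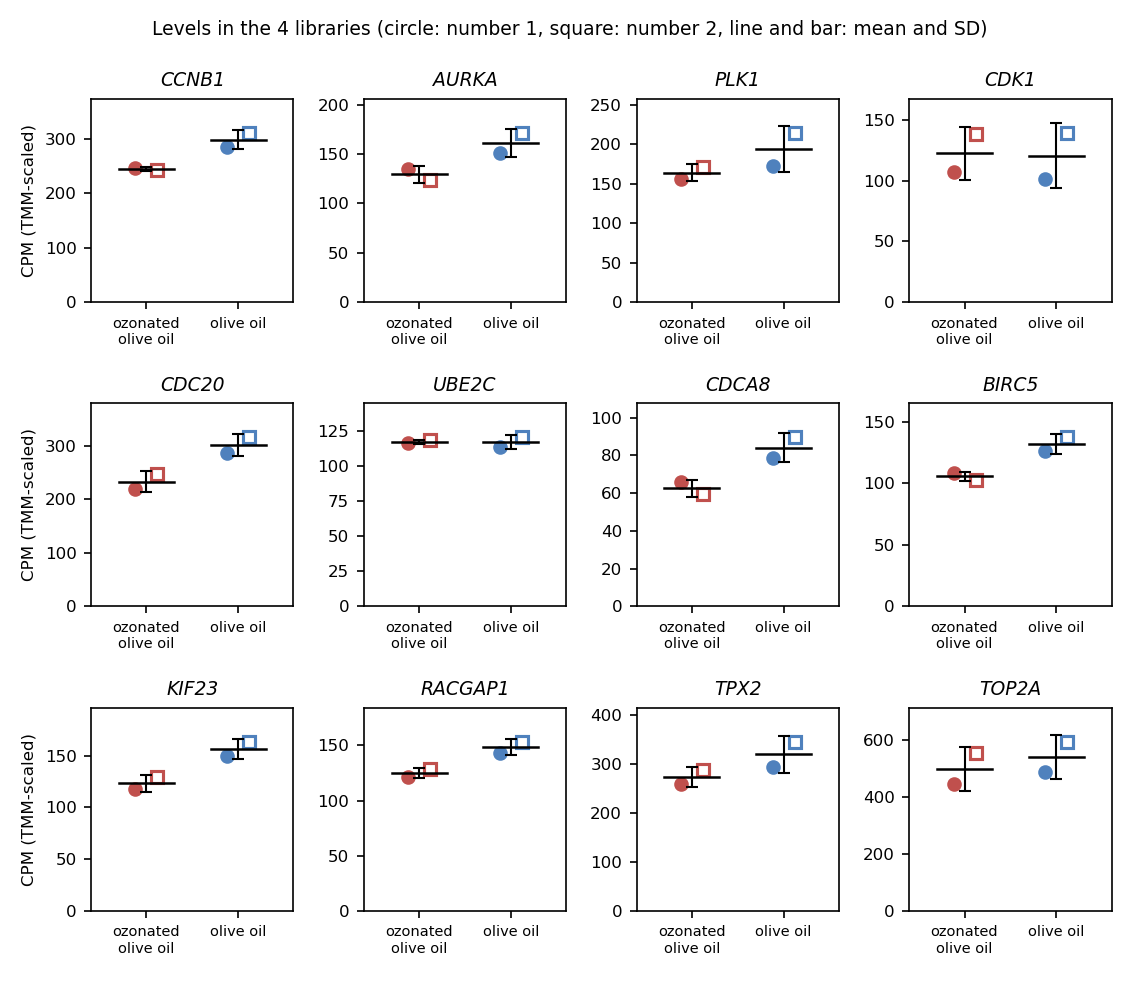
CPM in each library for 12 members, with the ozonated libraries left and the olive oil libraries right of each panel (circle for number 1, square for number 2, line and bar for mean and SD, n = 2). The groups do not overlap for CCNB1, AURKA, PLK1, CDC20, CDCA8, BIRC5, KIF23, RACGAP1 and TPX2, and they overlap for CDK1, UBE2C and TOP2A. The 12 were picked for display and overstate the separation. Of all 49 members, 20 (40.8%) had both ozonated libraries below both olive oil libraries, where 15.7% of all tested genes did. The 3 members higher within both numbers, CENPF, KIF14 and NUSAP1, are not shown.

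Cytokinesis was represented by 4 members, all with fitted values below 0 (role median -0.10). RACGAP1, the GTPase-activating partner of KIF23 in centralspindlin, lay at 121.5 and 128.5 CPM with the ozonated oil, against 143.1 and 153.4 CPM with olive oil. Like KIF23, it had nearly equal values within the numbers (-0.24 and -0.26) and groups that did not overlap (-0.25 ± 0.11, unadjusted p = 0.072 by edgeR). ECT2, the exchange factor that centralspindlin recruits to start the cleavage furrow, lay at 128.8 and 140.1 CPM with the ozonated oil, against 137.0 and 153.8 CPM with olive oil (-0.11 ± 0.12). PRC1, which bundles midzone microtubules, lay at 164.6 and 193.7 CPM, against 166.8 and 212.3 CPM (-0.08 ± 0.17). Both overlapped. ANLN, the contractile ring scaffold anillin, had -0.02 ± 0.10, with opposite signs in the 2 numbers.

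Spindle assembly and chromosome structure held 7 members, 5 of them lower within both numbers (role median -0.11). TPX2, the microtubule nucleator that activates Aurora A, lay at 258.7 and 287.8 CPM with the ozonated oil, against 293.2 and 345.3 CPM with olive oil. The groups came close without overlapping (-0.22 ± 0.13). HMMR, a spindle pole partner of TPX2, lay at 63.2 and 55.1 CPM, against 64.5 and 67.1 CPM, a gap set almost entirely by the second ozonated library (-0.15 ± 0.12). MKI67, the proliferation marker Ki-67 that coats mitotic chromosomes, lay at 430.1 and 485.6 CPM with the ozonated oil, against 499.7 and 500.5 CPM with olive oil. Its olive oil libraries agreed closely and the ozonated ones did not (-0.13 ± 0.11). TOP2A, the topoisomerase that untangles sister chromatids, lay at 444.0 and 554.1 CPM, against 486.3 and 594.5 CPM, and overlapped (-0.11 ± 0.17). The spindle pole protein gene ASPM had -0.04 ± 0.11, the microtubule-binding protein gene DLGAP5 0.01 ± 0.14 and NUSAP1, a microtubule bundler, 0.03 ± 0.24.

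Levels of different genes were compared per length, as the mean CPM over the 4 libraries per kilobase of the longest coding transcript in GENCODE 29. CDC20 was first with 150.5, followed by PTTG1 with 131.0, UBE2C with 128.1 and CCNB1 with 125.1. CDC20 ranged from 123.3 to 178.1 over the single libraries and CCNB1 from 111.6 to 143.3, with CDC20 above CCNB1 in each library. CDC20 was below PTTG1 (130.6) and UBE2C (127.0) in ozonated library 1 and above both in the other 3 libraries, and the order of PTTG1, UBE2C and CCNB1 among themselves also differed between libraries. TOP2A followed with 90.3, ranging from 77.1 to 103.2. At the low end stood SGO1 with 9.65, KIF18A with 7.43, CDC25C with 6.35 and SPC25 with 0.358. CDC25C and SPC25 each overlap another protein-coding gene, and reads lost there in counting would place them too low. Such a loss was not tested. A gene whose transcripts are mostly shorter than the longest one is placed too low on this scale.

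The members with a CHR match in the promoter and those without did not stand apart in the fitted value. The median log2 fold change was -0.10 over the 31 with a match, 19 of them lower within both numbers, and -0.09 over the 10 without one, 6 of them lower within both numbers. CDCA8, CDC20 and KIF23 hold a CHR match and CCNB1 does not, though all 4 were among the 6 with the smallest p.

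Beyond the 49 genes, 131 further genes of the same machinery were listed by role, of which 129 were tested. None passed the test, 79 had a fitted value below 0 and the median was -0.06. Leaving out the first ozonated or the second olive oil library put that median just above 0 (0.0108 and 0.0030). They were lower within both numbers in 64 cases (49.6%) and higher within both in 29 (22.5%), against 31.1% and 31.6% of all tested genes. An unadjusted p under 0.05 was found for 4 (3.1%), FAM83D, PSRC1, ANAPC13 and CCNF, a share below the 3.84% of all tested genes. FAM83D, which anchors casein kinase to the spindle, lay at 65.6 and 57.7 CPM with the ozonated oil, against 78.7 and 87.1 CPM with olive oil (-0.43 ± 0.13). PSRC1, a microtubule-binding protein gene, lay at 20.2 and 19.4 CPM, against 26.0 and 29.1 CPM (-0.48 ± 0.16). CCNF, which encodes cyclin F, the substrate receptor of an SCF ubiquitin ligase, lay at 42.7 and 44.2 CPM, against 50.8 and 71.0 CPM. The CCNF groups did not overlap, and the second olive oil library stood far above the first (-0.49 ± 0.19).

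Among the entry regulators, 8 of 13 had fitted values below 0, with CDC25A, a CDC25 phosphatase that also acts in S phase, at -0.29 ± 0.13. Of the APC/C genes, 13 of 17 were below 0. ANAPC13, a small subunit, lay at 72.6 and 65.5 CPM with the ozonated oil, against 89.0 and 84.0 CPM with olive oil (-0.33 ± 0.11), and FBXO5, the APC/C inhibitor EMI1, had -0.18 ± 0.13. Of the checkpoint genes 6 of 7 were below 0. Among them SPDL1, which brings dynein to kinetochores, had -0.21 ± 0.14 and MAD1L1, the anchor of MAD2, had -0.16 ± 0.12. Of the kinetochore and centromere genes 18 of 26 were below 0. The microtubule-binding SKA3 had -0.27 ± 0.14 and OIP5, which helps load CENPA, had -0.31 ± 0.18. Of the further kinesin and spindle genes 16 of 24 were below 0.

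Condensin and cohesin genes (8 of 19 below 0, median 0.02) and cytokinesis genes (3 of 10 below 0, median 0.06) did not share that balance. STAG2, a cohesin subunit, lay at 103.3 and 128.5 CPM with the ozonated oil, against 95.9 and 95.7 CPM with olive oil (0.27 ± 0.14), whereas the condensin subunit NCAPH had -0.20 ± 0.11. The membrane remodelling genes CHMP4B and PDCD6IP had 0.12 ± 0.10 and 0.11 ± 0.12. Of the genes for DREAM, MuvB and NF-Y subunits 7 of 13 were below 0 (median -0.01). LIN54, the MuvB subunit that binds the CHR, lay at 36.1 and 41.6 CPM with the ozonated oil, against 26.7 and 32.8 CPM with olive oil. Its groups did not overlap and it was higher within both numbers (0.39 ± 0.17), while TFDP1, the DNA-binding partner of E2F factors, had -0.26 ± 0.14.

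CDKN1A, which encodes the CDK inhibitor p21, lay at 438.3 and 153.5 CPM with the ozonated oil, against 373.5 and 98.0 CPM with olive oil. It was set apart far more by number than by oil: it was higher in number 1, where the members were lower. Within the numbers CDKN1A was higher with the ozonated oil (0.23 and 0.65, fitted value 0.33 ± 0.76). The part of that difference between the numbers in the members' values was not tested. GADD45A, an arrest gene that inhibits CDK1, had 0.24 ± 0.19. The fitted value of CDKN1A was -0.62 without ozonated olive oil replicate 1 and -0.33 without replicate 2 of the olive oil group. It was 0.90 without ozonated olive oil replicate 2 and 1.59 without replicate 1 of the olive oil group.

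The strand setting of the counting is not given in the sources used here. In RefSeq 7 members overlap another protein-coding gene, ANLN, KIF20A, SPC25, PLK1, CCNA2, FOXM1 and CDC25C, and BUB1B lies in the readthrough locus BUB1B-PAK6. Reads in those overlaps may have been dropped or assigned to either gene.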

How the data were processed

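The deposited table holds raw counts per gene, 1 column per library, all whole numbers, with totals that differ between libraries. The submitters' processing notes name build hg38 and, without roles, HISAT2 2.1.0, SAMtools 1.9, StringTie 1.3.4d, edgeR, bedtools 2.27.1, FastQC 0.11.7 and bcl2fastq. How reads were counted, with which strand setting and annotation, is not given in the sources used here. Per the labels' protocols, libraries were made with a directional kit. Rows without a symbol held 0.0423% to 0.0494% of the counts and stayed in the test because they carry gene IDs.

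From these counts, genes were filtered (filterByExpr), scaled by TMM and tested with edgeR 4.0.16 in R 4.3.3 (quasi-likelihood test, two-sided, group only, Benjamini-Hochberg over all genes, threshold 0.05). Standard errors are the fitted value over the root of its F statistic. Values within a replicate number are log2 CPM with a prior count of 2. Alternatives used other scalings, no filter, DESeq2 1.42.0, limma-voom (limma 3.58.1), the replicate number as a block and each library left out. The test was run on simulated data first. Members and gene lists were chosen with earlier results of these data known. Named with values in every library are the 3 members of smallest p in each of 6 roles and 15 fixed members. Of the further genes, the 2 of smallest p per role and 2 arrest genes are named, and a further gene of that rule is not reported here. The library values of CCNA2, MAD2L1, UBE2C, SPC25, CENPF, KIF4A and SPC24 were added after they were seen. Coordinates, overlaps and promoters are from RefSeq on GRCh38.p14, the build hg38.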

Additional observations from a re-analysis of the deposited data

How the results depend on the processing

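All 49 members, 17 further genes and the 2 arrest genes were recomputed under 12 alternatives, 816 values in all, and 745 kept their direction and their side of the threshold. The members' median lay between -0.18 and -0.03 without 1 library, and between -0.16 (library totals alone) and -0.11 under the other alternatives. With library totals alone the median of all tested genes was -0.04, and 37 members were lower within both numbers, where 38.4% of all tested genes were. Both ozonated libraries then lay below both olive oil libraries for 27 members, where they did for 20.4% of all tested genes. With upper quartile scaling these counts were 32 and 21 members. The shares of all tested genes under that scaling are not given here, so these counts cannot be set against them. Members below 0 without 1 library numbered 26 to 46.

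The labels do not say that a shared number marks a shared culture or day, and with 2 pairs the correlation of same-numbered deviations (0.67 over all tested genes, 0.61 over the members) cannot establish it. With the replicate number as a block, edgeR called 841 of 14841 genes (5.67%) and 6 of 49 members, all lower: CDC20, CDCA8, KIF23, CCNB1, BIRC5 and AURKA (adjusted p from 0.0039 to 0.043). It also called 6 of the 129 further genes tested, a share below the 5.67% of all genes. Of these 6, CCNF, FAM83D, PSRC1, TFDP1 and ANAPC13 were lower and LIN54 was higher. CDKN1A was called as well (0.43). DESeq2 with that block called 360 genes (2.43%), 2 of them members (CDC20 and KIF23), and CDKN1A (0.44). Without the block DESeq2 called 65 genes (0.438%) and limma-voom 0. Without 1 library edgeR called 0 to 4 genes and 0 members.

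Without 1 library the median of the further genes ranged from -0.11 to 0.01 (0.0030 without olive oil replicate 2, 0.0108 without ozonated olive oil replicate 1). The sign turned within the leave-one-out range for PRC1 (-0.25 to 0.11), TTK (-0.0512 to 0.13), CDK1 (-0.19 to 0.28), AURKB (-0.29 to 0.0265), TOP2A (-0.28 to 0.0389), CDKN1A (-0.62 to 1.59), GADD45A (-0.0125 to 0.45), CCNB2 (-0.26 to 0.0977), CDC25B (-0.0088 to 0.0251), CDC25C (-0.14 to 0.34), NEK2 (-0.17 to 0.15), BUB1B (-0.23 to 0.23), BUB3 (-0.0775 to 0.0087), MAD2L1 (-0.16 to 0.14), UBE2C (-0.0417 to 0.049), PTTG1 (-0.0621 to 0.0944), SGO1 (-0.17 to 0.12), HJURP (-0.21 to 0.0219), CENPF (-0.0043 to 0.17), NUF2 (-0.17 to 0.11), SPC25 (-1.50 to 0.67), KIF2C (-0.28 to 0.0036), ANLN (-0.0614 to 0.0252), NUSAP1 (-0.23 to 0.31), DLGAP5 (-0.14 to 0.19), ASPM (-0.11 to 0.04) and SPC24 (-0.0188 to 0.12). It did not turn for others whose values moved by more than 1.5 times, such as TPX2 (-0.34 to -0.0999), PLK1 (-0.39 to -0.0751), CENPA (-0.41 to -0.0408) and KIF20A (-0.30 to -0.0295). With library totals alone it turned for CDK1 (-0.0191), TTK (-0.0049), BUB1B (-0.0261), CDC25B (-0.0355), DLGAP5 (-0.0288), NUSAP1 (-0.0153), PTTG1 (-0.0293) and UBE2C (-0.0406), with upper quartile scaling for CDC25B (-0.0041) and UBE2C (-0.0095), and for MAD2L1 with DESeq2 and with its size factors (0.0019 each). The cause was not tested.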
